A study of Mus musculus with 9 samples.

Results

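The genes described here are 9 genes of the insulin receptor substrate and PI3K pathway: Insr, Irs1, Irs2, Pik3r1, Pik3ca, Akt1, Akt2, Foxo1 and Foxo3. They were chosen by name, with earlier results of these data known, so counts among them are descriptions. Their probe sets were those that the platform's annotation gives to exactly 1 of these symbols. The probe set of highest mean over the 9 arrays stood for each gene. All 9 were found among 22180 named genes, and all 9 passed the filter on dim values that left 12630 genes to be tested. Expression was measured in 3T3-L1 pre-adipocytes, a mouse fibroblast line that turns into fat cells when given a hormonal cocktail, after the cells had reached confluence and had been growth-arrested for 48 h. The groups were vehicle-treated cells, cells given a scrambled control siRNA and then IBMX with dexamethasone (IBMX/Dex), and cells given an siRNA against CD24 and then IBMX/Dex, with 3 arrays each. IBMX blocks phosphodiesterases and so raises cAMP, and dexamethasone is a glucocorticoid; they were given at 0.5 mM and 1 µM for 6 h. The labels describe siRNA transfection for all samples alike and do not state which siRNA, if any, the vehicle cells received, so an effect of IBMX/Dex and an effect of transfection cannot be told apart in the comparisons with vehicle. All cells belong to one line and the labels name no separate cultures, so the p-values below describe the spread among these arrays, which may be technical.

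Insulin and insulin-like growth factors act through receptor tyrosine kinases that phosphorylate docking proteins, chiefly Irs1 and Irs2. Phosphorylated docking proteins recruit phosphoinositide 3-kinase (PI3K), a dimer of a regulatory and a catalytic subunit, whose lipid product brings the kinase AKT to the membrane. AKT in turn phosphorylates FOXO transcription factors, which keeps them out of the nucleus, and releases the kinase complex mTORC1 from inhibition by the Tsc proteins. In fat cells the same pathway drives glucose uptake, and insulin is part of the cocktail commonly used to convert 3T3-L1 cells, although the treatment studied here held IBMX and dexamethasone alone.

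The RefSeq promoter table (build GRCm38.p6) held windows from 250 bases before to 50 bases after the start of 8 of the 9 genes, 13 windows in all; Insr had none. The 250 bases before the start are shown for the genes whose expression changed in both comparisons with vehicle (below), with the second of the Pik3r1 starts, and capitals mark matches to the motifs searched on both strands.
Irs1, chr1:82291440-82291689, minus strand: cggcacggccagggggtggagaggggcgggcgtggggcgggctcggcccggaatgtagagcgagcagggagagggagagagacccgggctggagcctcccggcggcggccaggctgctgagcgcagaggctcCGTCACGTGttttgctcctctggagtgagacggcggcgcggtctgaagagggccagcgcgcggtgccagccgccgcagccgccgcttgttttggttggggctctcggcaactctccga
Irs2, chr8:11008930-11009179, minus strand: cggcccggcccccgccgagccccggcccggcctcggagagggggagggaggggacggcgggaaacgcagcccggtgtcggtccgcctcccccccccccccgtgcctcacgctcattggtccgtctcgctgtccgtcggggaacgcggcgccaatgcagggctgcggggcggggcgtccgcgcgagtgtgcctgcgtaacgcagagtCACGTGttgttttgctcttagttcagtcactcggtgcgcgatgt
Pik3r1, chr13:101692631-101692880, minus strand: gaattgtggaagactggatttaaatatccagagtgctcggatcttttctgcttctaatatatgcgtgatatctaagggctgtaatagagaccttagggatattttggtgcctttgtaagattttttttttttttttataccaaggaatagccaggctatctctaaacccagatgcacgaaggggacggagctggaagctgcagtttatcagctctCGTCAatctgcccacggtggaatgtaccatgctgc

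The Irs1 and Irs2 windows each held 1 E-box (CACGTG), which begins 115 bases before the start in Irs1 and 44 bases before it in Irs2; 7.15% of the 32851 windows in the table hold one. The short cAMP response motif (TGACG), read on the opposite strand, lay 118 bases before the Irs1 start, where it overlaps the E-box, and 35 bases before the second Pik3r1 start. It was also found in 2 of the 4 Akt2 windows and in the Foxo3 window, and 20.8% of all windows hold it. The full element (TGACGTCA, in 1.79% of all windows), the short glucocorticoid motif (AGAACA, 19%) and the sterol element (CACCCCAC, 2.87%) matched none of the 13 windows, and the FOXO motif (GTAAACA, 3.65%) matched 1 window of Akt1. The first Pik3r1 window held no match. A match is a run of letters and does not show that a factor binds there.

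The gene targeted by the siRNA checks the labels. Cd24a stood at 8.88, 9.92 and 9.49 with vehicle, at 11.19, 11.73 and 11.81 with scrambled siRNA and IBMX/Dex, and at 10.15, 10.16 and 11.72 with CD24 siRNA and IBMX/Dex, so that the array labelled CD24 siRNA replicate 3 was not below its scrambled counterpart by more than 0.10. A second Cd24a probe set read 9.28, 8.72 and 9.25 with scrambled siRNA and 7.22, 6.68 and 9.08 with CD24 siRNA, so it too was lowered on arrays 1 and 2 and little on array 3. Several results for CD24 siRNA are therefore also given without that array.

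The labelled cell type was checked against markers. Of 9 measured markers of pre-adipocytes and fibroblasts 8 lay above the filter, among them Pdgfra, Dlk1 and Col1a1, and Zfp423 below it. Of 9 markers of mature fat cells Adipoq, Plin1, Lep, Cidec and Cebpa lay below the filter and 4 above it (Fabp4, Retn, Lpl and Pparg). Fabp4, Lpl and Pparg exceeded the filter level on every array of all groups, vehicle included, and Retn on some arrays only. The mean log2 level of the pre-adipocyte markers was 11.05 to 11.18 on vehicle arrays, 10.57 to 10.74 with scrambled siRNA and 10.59 to 10.71 with CD24 siRNA. That of the fat cell markers was 7.32 to 7.40, 7.39 to 7.65 and 7.28 to 7.54. The mean level of the pre-adipocyte markers was thus lower on every IBMX/Dex array. Of the 8 tested 2 fell in each comparison with vehicle, beside 3.6% and 3.73% of all genes. The markers moved unequally. From vehicle to scrambled siRNA the means went from 11.49 to 9.83 for Pdgfrb and from 11.96 to 10.92 for Pdgfra. They went from 12.34 to 12.26 for Dlk1, and Thy1 alone was higher (10.99 to 11.23). The part of the lower marker level in the results was not tested. In bulk samples fewer cells of a type and less RNA per cell cannot be told apart. The other lists overlapped between groups: macrophage markers lay between 6.54 and 6.89, skeletal muscle markers between 6.67 and 7.02, endothelial markers between 6.10 and 6.28 and epithelial markers between 6.09 and 6.39. Above the filter lay 4 of 8 macrophage markers (Cd68, Csf1r, Lyz2 and Cd14, but not Adgre1, Ptprc, Itgam or Mrc1), 6 of 8 muscle markers (Myod1, Myog, Des, Acta1, Tnnt2 and Pax7, but not Ckm or Myh1), 1 of 6 endothelial markers (Cdh5) and 2 of 6 epithelial markers (Krt8 and Krt14). Of these genes Des, an intermediate filament gene of muscle, fell against vehicle, 1.62-fold with scrambled siRNA and 1.63-fold with CD24 siRNA (adjusted p = 0.0195 and 0.0200). Array medians were 6.47 to 6.56, and over all genes the 95% interval around a difference had a median reach of 0.34 log2 units each way.

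The docking protein genes differed from vehicle in opposite directions. Irs1, the docking protein most tied to glucose uptake and growth signals in fat cells, was 2.88-fold lower with scrambled siRNA and IBMX/Dex than with vehicle, while Irs2, its closest relative, was 2.86-fold higher. Pik3r1, which encodes the main regulatory subunit of PI3K, was 2.07-fold higher. The other 6 genes did not pass the test (adjusted p between 0.0611 and 0.948). Thus 3 of 9 genes passed, 2 higher and 1 lower, beside 6.94% of all genes tested (3.33% higher, 3.6% lower). The list was made with earlier results of these data known, so this share is a description and no independent support. The median difference of the 9 genes was 0.022 log2 units, and that of all genes was 0.021.

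**Figure D1:**
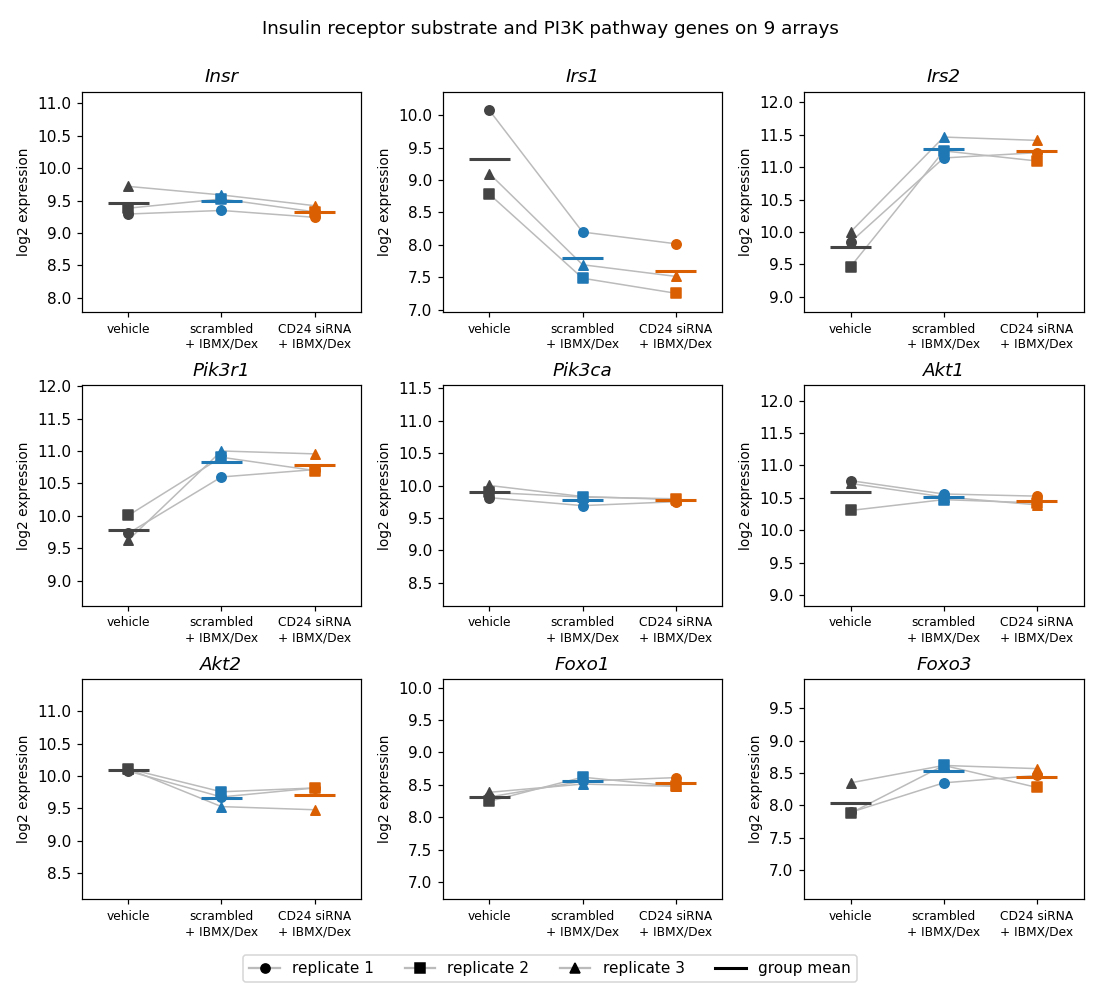
Log2 expression of the 9 genes on each array, 1 panel per gene, with vehicle, scrambled siRNA with IBMX/Dex and CD24 siRNA with IBMX/Dex from left to right. Symbols are replicate numbers, grey lines join arrays of the same number, horizontal bars are group means, and every panel spans the same number of log2 units; Irs1 (means 9.32, 7.79 and 7.59) falls while Irs2 (9.77, 11.29 and 11.25) and Pik3r1 (9.79, 10.84 and 10.79) rise.

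The receptor gene Insr stood at 9.29, 9.38 and 9.72 log2 units on vehicle arrays 1, 2 and 3, at 9.35, 9.53 and 9.59 with scrambled siRNA and IBMX/Dex, and at 9.24, 9.33 and 9.42 with CD24 siRNA and IBMX/Dex. The groups overlapped throughout, and no order of their levels could be set. The difference between scrambled siRNA and vehicle was 0.022 ± 0.13 (SE, 95% interval -0.28 to 0.32). With 3 arrays per group, changes within that interval are not excluded.

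Irs1 stood at 10.07, 8.78 and 9.10 with vehicle (mean 9.32 ± 0.67, SD, n = 3), at 8.20, 7.48 and 7.69 with scrambled siRNA and IBMX/Dex (7.79 ± 0.37, SD, n = 3), and at 8.02, 7.25 and 7.51 with CD24 siRNA and IBMX/Dex (7.59 ± 0.39, SD, n = 3). Replicate number 1 was the highest of its group in all 3 groups and number 2 the lowest, yet every IBMX/Dex array lay below every vehicle array. The same-numbered differences of scrambled siRNA from vehicle were -1.88, -1.30 and -1.41. The fitted difference was -1.53 ± 0.34 (SE; adjusted p = 0.0310), and with the replicate number as a block its SE was 0.13 (adjusted p = 7.13e-05). Without the block the call ended when scrambled replicate 2 (adjusted p = 0.0975), scrambled replicate 3 (0.102) or vehicle replicate 3 (0.0654) was removed. Removing the array labelled CD24 siRNA replicate 3, which enters through the common variance, also ended it (0.0527). It was lost too when the 6 arrays compared were fitted alone (0.0710).

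A second, dimmer Irs1 probe set, with a mean of 6.08 beside the filter level of 6.51, stood at 7.16, 5.92 and 6.39 with vehicle. It read 6.21, 5.75 and 5.82 with scrambled siRNA and IBMX/Dex, and 5.87, 5.83 and 5.81 with CD24 siRNA and IBMX/Dex. Its differences from vehicle were thus smaller, -0.56 for scrambled siRNA and -0.65 for CD24 siRNA, in the same direction as on the brighter probe set. With the mean of both probe sets the Irs1 difference for scrambled siRNA was -1.04 (adjusted p = 0.0702).

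Irs2 stood at 9.85, 9.47 and 10.00 with vehicle (9.77 ± 0.28, SD, n = 3), at 11.14, 11.25 and 11.47 with scrambled siRNA and IBMX/Dex (11.29 ± 0.16, SD, n = 3), and at 11.22, 11.10 and 11.41 with CD24 siRNA and IBMX/Dex (11.25 ± 0.16, SD, n = 3). The gap between the highest vehicle array and the lowest IBMX/Dex array was wider than the spread within any group. The difference of scrambled siRNA from vehicle was 1.52 ± 0.16 (SE; adjusted p = 0.00135), with same-numbered differences of 1.30, 1.79 and 1.46. It passed in all 18 alternative fits, where it ranged from 1.36 to 1.63. A further probe set, which the annotation shares between Irs2 and another transcript, lay near the filter level (mean 6.60) and differed by 0.13 for scrambled siRNA; it was not used for the gene.

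Set against each other on the same array, where any scaling of the array cancels, Irs2 minus Irs1 rose by 3.04 log2 units from vehicle to scrambled siRNA with IBMX/Dex and by 3.20 to CD24 siRNA with IBMX/Dex. The rise was seen within each of the 3 replicate numbers. This shows that the pair changed unequally and sets no level of one gene against the other.

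**Figure D2:**
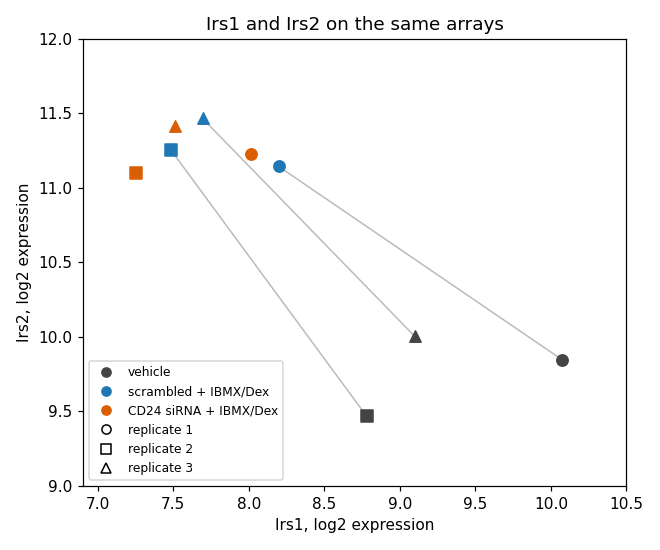
Log2 expression of Irs1 (horizontal axis) and Irs2 (vertical axis) on the 9 arrays, coloured by group, with symbols for the replicate number and grey lines from vehicle to the scrambled array of the same number. All 3 lines run up and to the left, and the CD24 siRNA arrays lie beside the scrambled arrays of their number.

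The subunits of PI3K differed from each other. Pik3r1 stood at 9.73, 10.01 and 9.63 with vehicle (9.79 ± 0.20, SD, n = 3), at 10.60, 10.90 and 11.00 with scrambled siRNA and IBMX/Dex (10.84 ± 0.21, SD, n = 3), and at 10.71, 10.70 and 10.96 with CD24 siRNA and IBMX/Dex (10.79 ± 0.14, SD, n = 3). Vehicle and IBMX/Dex arrays did not overlap. The difference of scrambled siRNA from vehicle was 1.05 ± 0.15 (SE; adjusted p = 0.00528) and passed in all 18 alternative fits (0.96 to 1.17). The gene gives rise to a long and to shorter regulatory proteins from different starts, and its single probe set does not separate them.

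Pik3ca, which encodes the catalytic subunit used by most growth factor receptors, stood at 9.81, 9.90 and 10.00 with vehicle, at 9.69, 9.82 and 9.83 with scrambled siRNA and IBMX/Dex, and at 9.75, 9.80 and 9.79 with CD24 siRNA and IBMX/Dex. Its differences from vehicle, -0.12 ± 0.097 and -0.13 ± 0.097 (SE), did not pass (adjusted p = 0.513 and 0.505). The Pik3r1 level thus rose against that of Pik3ca within the same arrays, by 1.17 and 1.13 log2 units.

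The 2 widely expressed AKT kinases gave unlike values. Akt1, linked mainly to growth and survival, stood at 10.76, 10.30 and 10.72 with vehicle, at 10.56, 10.47 and 10.51 with scrambled siRNA and IBMX/Dex, and at 10.53, 10.42 and 10.39 with CD24 siRNA and IBMX/Dex. Vehicle replicate 2 was the lowest of all 9 arrays, and the groups overlapped (difference -0.082 ± 0.13, SE, for scrambled siRNA). Akt2, the form most tied to insulin-driven glucose uptake, stood at 10.08, 10.11 and 10.11 with vehicle, at 9.68, 9.76 and 9.53 with scrambled siRNA and IBMX/Dex, and at 9.82, 9.82 and 9.48 with CD24 siRNA and IBMX/Dex. Every IBMX/Dex array lay below the vehicle arrays. The Akt2 difference for scrambled siRNA was -0.45 ± 0.12 (SE; 1.36-fold lower), which did not pass without the block (adjusted p = 0.0611) and passed with it (adjusted p = 0.0133). It also passed with quantile normalization (adjusted p = 0.0325) and without CD24 siRNA replicate 3 (adjusted p = 0.0424). Whether the changes of the AKT genes differ from each other was not tested.

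Both FOXO genes had higher means with IBMX/Dex, and neither passed without the replicate block on all 9 arrays. Foxo3 stood at 7.90, 7.88 and 8.35 with vehicle, at 8.35, 8.62 and 8.62 with scrambled siRNA and IBMX/Dex, and at 8.46, 8.28 and 8.57 with CD24 siRNA and IBMX/Dex. Vehicle replicate 3 reached the lowest IBMX/Dex arrays. The difference for scrambled siRNA was 0.49 ± 0.16 (SE; 1.40-fold), which did not pass without the block (adjusted p = 0.0988) and passed with it (adjusted p = 0.0165). Without vehicle replicate 3 and with no block it was 0.64 (adjusted p = 0.0464). Foxo1, a brake on early fat cell differentiation, stood at 8.31, 8.24 and 8.38 with vehicle, at 8.55, 8.62 and 8.51 with scrambled siRNA and IBMX/Dex, and at 8.61, 8.48 and 8.48 with CD24 siRNA and IBMX/Dex. Both IBMX/Dex groups lay above vehicle on every array, but the difference of 0.25 ± 0.095 (SE; 1.19-fold) did not pass, also with the block (adjusted p = 0.165 and 0.0930). A dimmer Foxo1 probe set (mean 6.81) gave 0.082 for scrambled siRNA and -0.099 for CD24 siRNA.

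With the replicate number as a block 5 of the 9 genes passed for scrambled siRNA against vehicle: Irs2, Pik3r1 and Foxo3 were higher and Irs1 and Akt2 lower. In that fit 23.3% of all genes passed (11.9% higher, 11.4% lower). For 6 of the 9 genes (Irs1, Irs2, Pik3r1, Akt2, Foxo1 and Foxo3) the vehicle and scrambled arrays did not overlap, beside 25.2% of all genes tested. For Foxo3 this was nearly a tie, as vehicle replicate 3 and scrambled replicate 1 both stood at 8.35. The same 6 had an unadjusted p under 0.05, beside 22.7% of all genes. For 7 of 9 the 3 same-numbered differences had a common sign, beside 53% of all genes.

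**Figure D3:**
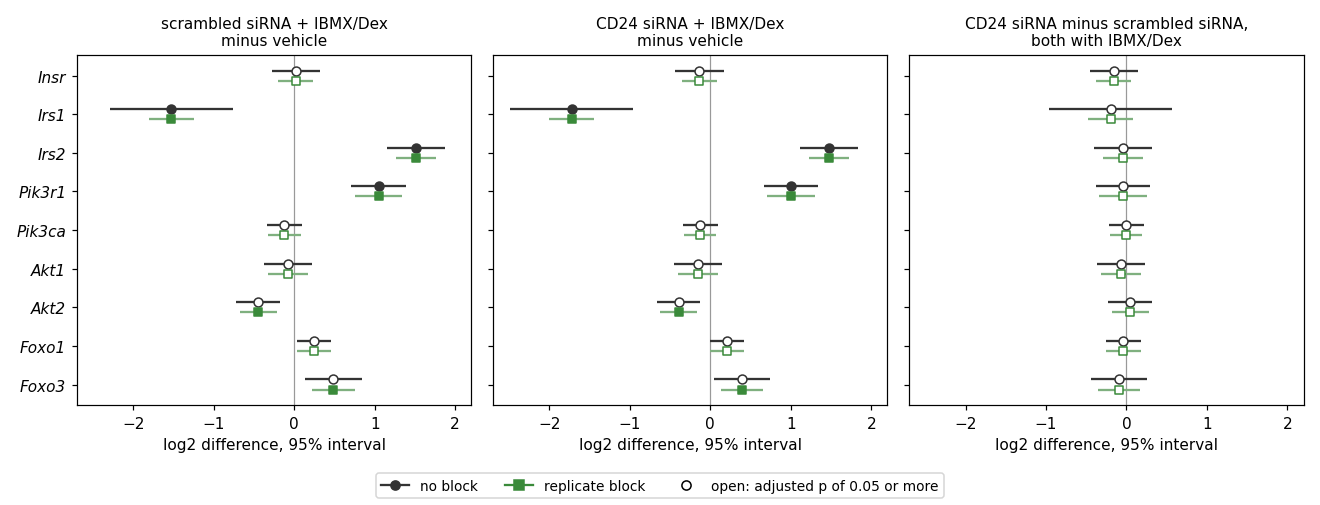
Log2 differences with 95% intervals for the 9 genes (rows) in the 3 comparisons (panels), from limma without a block (black circles) and with the replicate number as a block (green squares); filled symbols have an adjusted p under 0.05. Irs1, Irs2 and Pik3r1 are filled in both fits against vehicle, Akt2 and Foxo3 with the block alone, and no symbol is filled in the right panel.

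CD24 siRNA with IBMX/Dex gave the same 3 calls against the vehicle arrays, which both comparisons share. Irs1 was 3.30-fold lower (difference -1.72 ± 0.34, SE; adjusted p = 0.0205), Irs2 2.78-fold higher (1.47 ± 0.16, SE; adjusted p = 0.00158) and Pik3r1 2.00-fold higher (1.00 ± 0.15, SE; adjusted p = 0.00684). Of all genes tested 6.65% passed in this comparison (2.92% higher, 3.73% lower), and 22.4% with the block (10.4% higher, 12.1% lower), where Akt2 (1.32-fold lower, adjusted p = 0.0229) and Foxo3 (1.31-fold higher, adjusted p = 0.0403) passed as well. The arrays did not overlap for 6 genes (Irs1, Irs2, Pik3r1, Pik3ca, Akt2 and Foxo1), beside 25.8% of all genes. The 3 same-numbered differences had a common sign for 8 genes, all but Akt1, beside 52.1% of all genes.

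Without the array labelled CD24 siRNA replicate 3, Irs2 was 1.39 above vehicle (adjusted p = 0.0114) and Pik3r1 0.92 above it (adjusted p = 0.0327), while Irs1 did not pass (-1.68, adjusted p = 0.0796); leaving out CD24 siRNA replicate 2 also lost the Irs1 call (adjusted p = 0.0767). With the block and without replicate 3, Irs1 (-1.76, adjusted p = 0.000404), Irs2 and Pik3r1 passed, but Akt2 (-0.31, adjusted p = 0.108) and Foxo3 (0.43, adjusted p = 0.0844) did not.

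The question the study's design puts is whether CD24 siRNA alters the response, and here the CD24 siRNA arrays were set against the scrambled ones, both with IBMX/Dex. None of the 9 genes passed in limma, with or without the block, and none had an unadjusted p under 0.05 in either fit. Of all 12630 genes 0 passed in either fit (0%), while 30 (0.238%) had an unadjusted p under 0.05, and 219 (1.73%) with the block. Cd24a, the target of the siRNA, was itself among the genes that did not pass. Its difference of -0.90 was the lowest of all genes tested. The count of 0 is thus a limit of this comparison and does not show that CD24 siRNA was without effect. The differences of the 9 genes lay between -0.20 (Irs1) and 0.050 (Akt2), with a median of -0.045 beside -0.013 for all genes. For Irs2 the difference was -0.042 (95% interval -0.41 to 0.32; -0.29 to 0.20 with the block) and for Pik3r1 -0.045 (-0.38 to 0.29; -0.34 to 0.25 with the block). For Irs1 it was -0.20 (-0.96 to 0.57; -0.48 to 0.086 with the block). The intervals of all 3 genes, in both fits, leave out a difference as large as their own from vehicle. Differences within the printed intervals are not excluded. The 3 same-numbered differences were all negative for Insr (-0.11, -0.20 and -0.17), Irs1 (-0.18, -0.23 and -0.18) and Akt1 (-0.033, -0.051 and -0.12), so 3 of 9 genes had a common sign, beside 23.7% of all genes. The arrays overlapped for all 9 genes, and did not for 2.41% of all genes. Without CD24 siRNA replicate 3 the difference was -0.16 for Irs1, -0.13 for Irs2 and -0.13 for Pik3r1.

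The rest of the pathway was described by 8 lists of genes grouped by role. Of 106 listed genes 97 were matched to a probe set and 85 were tested; 12 lay below the filter and 9 were not analysed here. For scrambled siRNA against vehicle 7 of 85 passed, 2 higher and 5 lower, beside 6.94% of all genes (3.33% higher, 3.6% lower). With the block 8 were higher and 14 lower, beside 23.3% of all genes (11.9% higher, 11.4% lower). For CD24 siRNA against vehicle 9 passed, 2 higher and 7 lower, beside 6.65% of all genes (2.92% higher, 3.73% lower). With the block 7 were higher and 16 lower, beside 22.4% of all genes (10.4% higher, 12.1% lower). Between CD24 and scrambled siRNA none of the 85 passed, beside 0% of all genes. Unless stated, changes of listed genes with either siRNA below are those with IBMX/Dex against vehicle.

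**Figure D4:**
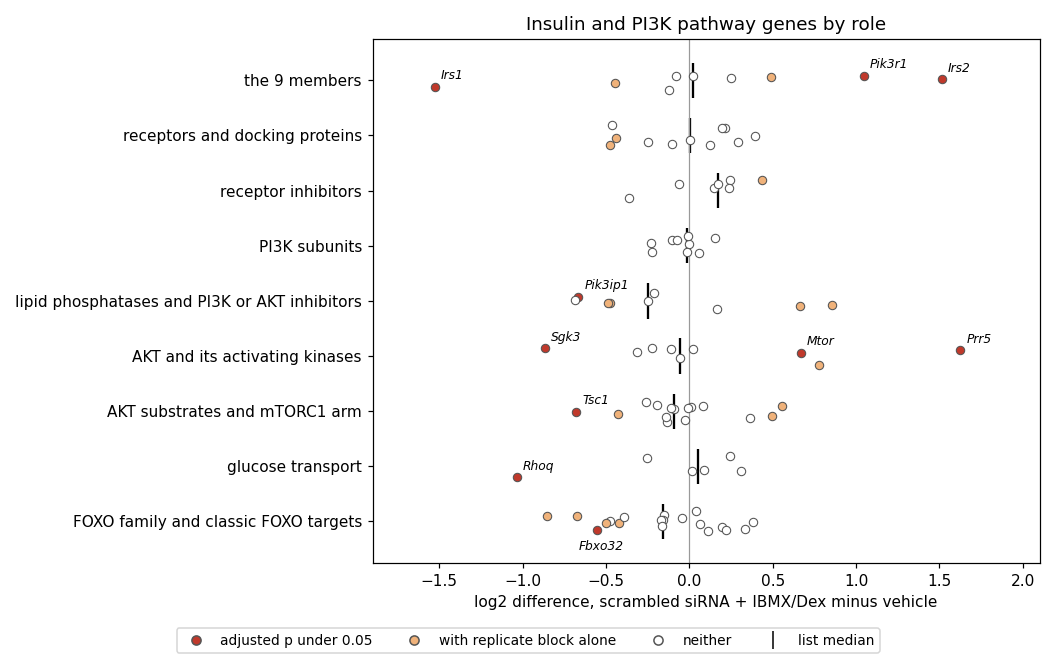
Log2 difference between scrambled siRNA with IBMX/Dex and vehicle (horizontal axis) for the 9 genes and for the tested genes of 8 pathway lists (rows). Red points passed without a block and are named, orange points passed with the replicate block alone, white points passed in neither fit, and black bars are list medians; the PI3K subunits lie between -0.23 and 0.15.

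Among 11 receptors and docking proteins none passed for scrambled siRNA. The docking protein genes Gab1 and Gab2, which recruit PI3K beside the Irs proteins, were lower with CD24 siRNA and IBMX/Dex than with vehicle (1.49-fold and 1.47-fold, adjusted p = 0.0392 and 0.0359). With scrambled siRNA they were 1.36-fold and 1.39-fold lower (adjusted p = 0.0902 and 0.0575), and with the block they passed in both comparisons with vehicle. Between CD24 and scrambled siRNA they differed by -0.14 and -0.075, and the arrays overlapped. The calls for CD24 siRNA without the block ended when any 1 of scrambled replicates 2 and 3, vehicle replicates 2 and 3 and CD24 siRNA replicates 1 and 2 was removed, and for Gab2 also when CD24 siRNA replicate 3 was (adjusted p between 0.0531 and 0.129). None of 7 genes listed as inhibitors of the receptors passed without the block in either comparison. Grb14, an adaptor that blocks the insulin receptor, was 1.29-fold lower with scrambled siRNA (adjusted p = 0.240). Ptpn11, a phosphatase gene put in this list without a test of its role, was 1.18-fold higher with scrambled siRNA (adjusted p = 0.301). With CD24 siRNA Grb14 was 1.34-fold lower and passed with the block (adjusted p = 0.0322) but not without it (0.183). With the block and without CD24 siRNA replicate 3 its difference from vehicle was -0.39 and did not pass (adjusted p = 0.109). With scrambled siRNA the block also let Socs1 pass, a feedback inhibitor of receptor signalling that was 1.35-fold higher (adjusted p = 0.0389; 0.363 without it); it was named after its values were seen.

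Apart from Pik3r1 and Pik3ca, 9 PI3K subunits and adaptors were tested and none passed, also with the block. Their differences for scrambled siRNA ran from -0.23 (Pik3cb, another catalytic subunit) to 0.15 (Pik3ap1, an adaptor). Of 9 lipid phosphatases and inhibitors of PI3K or AKT, Pik3ip1, a membrane protein that restrains PI3K, fell 1.59-fold (7.31, 7.40 and 7.43 with vehicle; 6.75, 6.70 and 6.69 with scrambled siRNA; adjusted p = 0.00591). It fell 1.51-fold with CD24 siRNA (adjusted p = 0.00914). Inppl1, a phosphatase acting on the PI3K product, was 1.39-fold lower with scrambled siRNA, which did not pass without the block (adjusted p = 0.104) and passed with it (adjusted p = 0.0496). Its same-numbered differences were uneven, at -0.75, -0.033 and -0.63. With CD24 siRNA it was 1.37-fold lower and did not pass, also with the block (adjusted p = 0.123 and 0.0609).

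The largest rise among the listed genes was that of Prr5, a subunit of mTORC2, the complex that phosphorylates AKT. It stood at 10.38, 9.01 and 9.78 with vehicle and at 11.54, 11.32 and 11.18 with scrambled siRNA, a 3.09-fold rise (adjusted p = 0.0167), and rose 3.07-fold with CD24 siRNA (adjusted p = 0.0176). The vehicle arrays spread over more than 1 log2 unit. In the fit without the block, the call for scrambled siRNA was lost on removing any 1 scrambled array or vehicle replicate 3 (adjusted p between 0.0501 and 0.0542). In that fit the other call ended when vehicle replicate 3 or 1 of CD24 siRNA replicates 1 and 3 was removed (adjusted p between 0.0535 and 0.0660). With the block and all 9 arrays Prr5 passed in both comparisons (adjusted p = 0.000491 and 0.000545). Mtor, the kinase of both mTOR complexes, rose 1.59-fold and 1.53-fold (adjusted p = 0.0181 and 0.0270). Without the block its call for scrambled siRNA was lost on removing scrambled replicate 2 or 3 or vehicle replicate 2 (adjusted p between 0.0503 and 0.0810). That for CD24 siRNA was lost on removing any 1 CD24 siRNA array or vehicle replicate 1 or 2 (adjusted p between 0.0575 and 0.0993). With the block and all 9 arrays Mtor passed in both comparisons (adjusted p = 0.00164 and 0.00275). Sgk3, a kinase related to AKT and also activated through PI3K, fell 1.83-fold and 1.62-fold (adjusted p = 0.00417 and 0.0110). These were 3 of 9 genes of AKT and its activating kinases, 2 higher and 1 lower, beside 6.94% of all genes for scrambled siRNA and 6.65% for CD24 siRNA.

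In each of the following lists 1 gene passed without the block in either comparison with vehicle, beside the same 6.94% and 6.65% of all genes. Of 15 AKT substrates and genes of the mTORC1 arm, Tsc1, whose product with Tsc2 holds mTORC1 in check, fell 1.60-fold (9.55, 9.57 and 9.72 with vehicle; 8.90, 8.99 and 8.91 with scrambled siRNA; adjusted p = 0.00994) and 1.59-fold with CD24 siRNA (adjusted p = 0.0113). Tbc1d4, an AKT substrate in glucose transporter traffic, was 1.47-fold higher with scrambled siRNA (adjusted p = 0.0587) and passed with the block (adjusted p = 0.00863). With CD24 siRNA it was 1.41-fold higher (adjusted p = 0.0845) and passed with the block (adjusted p = 0.0144). Of 6 glucose transport genes Rhoq, a small GTPase placed in insulin-driven transporter traffic, fell 2.05-fold and 2.30-fold (adjusted p = 0.00135 and 0.000538); its arrays read 10.33, 10.55 and 10.36 with vehicle and 9.50, 9.37 and 9.26 with scrambled siRNA. Rab10, another GTPase of that traffic, was 1.18-fold higher in both comparisons and did not pass (adjusted p = 0.250 and 0.262). Of 19 tested FOXO relatives and genes known as FOXO targets, Fbxo32, a ubiquitin ligase gene, fell 1.47-fold and 1.58-fold (adjusted p = 0.0440 and 0.0248). Txnip, an inhibitor of thioredoxin, was 1.41-fold and 1.34-fold lower, which did not pass without the block (adjusted p = 0.0551 and 0.0920) and passed with it (adjusted p = 0.00809 and 0.0165). With the block and without CD24 siRNA replicate 3, the Txnip difference of CD24 siRNA from vehicle was -0.37 and did not pass (adjusted p = 0.0791). Without the block, the Fbxo32 call for scrambled siRNA was lost on removing any 1 scrambled array, vehicle replicate 2 or 3 or CD24 siRNA replicate 2 (adjusted p between 0.0746 and 0.154). That for CD24 siRNA was lost on removing vehicle replicate 2 or 3 or CD24 siRNA replicate 2 or 3 (adjusted p between 0.0616 and 0.0895). With the block and all 9 arrays Fbxo32 passed in both comparisons (adjusted p = 0.00894 and 0.00424).

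The genes whose pattern over the 9 arrays was most like that of the 3 called genes were taken by Pearson's r among all genes tested, as a description; since vehicle and IBMX/Dex arrays stand apart, r mostly reflects that contrast. For Irs1 they were S1pr2 (r = 0.989), Trim56 (0.984) and Fhl2 (0.981), with Ubr3 the most opposed (-0.975). For Irs2 they were Bag3 (0.997), Atp10d (0.995) and Crem (0.993), with Asap1 the most opposed (-0.989). For Pik3r1 they were Abca1 (0.994), Vcan (0.984) and Habp4 (0.981), with the long non-coding RNA gene Morrbid the most opposed (-0.996). An r above 0.95 was reached by 39, 138 and 42 genes for Irs1, Irs2 and Pik3r1.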

How the data were processed

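RNA (250 ng per sample) from 9 samples was hybridised to 9 single-colour arrays of 41345 probe sets. The deposited values are log2 expression made by the authors with RMA and the oligo package, per the submitters' processing notes; their versions are not stated in the labels. RMA gives arrays nearly equal distributions, so a shift of most transcripts would be removed. The values were used as deposited.

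Probe sets with 1 symbol in the platform annotation (23521; 1814 had several and 16010 were unnamed here) were reduced to the brightest per gene. A gene was tested where at least 3 of its 9 values reached the table median, 6.51. Symbols checked through gene identifiers against RefSeq (GRCm38.p6) changed in 0 cases. The main model was limma's (version 3.58.1 in R 4.3.3; lmFit, eBayes), on all 9 arrays with 1 mean per group; p-values are two-sided, with Benjamini-Hochberg adjustment over the 12630 genes of a comparison and a threshold of 0.05. The fit was tested on simulated data. "Higher" and "lower" calls refer to this fit unless the block is named.

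The titles number the replicates 1 to 3. Across genes, deviations from the group mean correlated at 0.377 to 0.732 for same-numbered arrays and at no more than 0.116 for others. The numbers were therefore treated as pairing. Values from a fit with the number as a block stand beside the named genes whose call they alter, and beside some others. Other alternatives were leaving out each array, other filters, quantile normalization, median centring, the mean of probe sets, an intensity trend with robust variances, and fitting 6 arrays alone.

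The 9 genes, the pathway and marker lists and the motifs were chosen with earlier results of these data known. Of each pathway list the text names the genes that passed in any comparison and, with fewer than 2, those with the smallest p for scrambled siRNA; of genes like a called gene it names the 3 with the highest r and the 1 with the lowest. Motifs were searched in RefSeq promoter windows of 300 bases; the arrays' values carry no coordinates.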

Additional observations from a re-analysis of the deposited data

How the results depend on the processing

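With the replicate number as a block, 5 of the 9 genes passed against vehicle in place of 3, for scrambled and for CD24 siRNA; for scrambled siRNA the count was also 5 with the block and without CD24 siRNA replicate 3. The block changed the calls of Akt2, Foxo3, Gab1, Gab2, Grb14, Socs1, Inppl1, Tbc1d4 and Txnip named above; in this balanced design it leaves each difference as it is. Leaving out 1 array gave 2 to 3 of the 9 genes in both comparisons and 0 for CD24 against scrambled siRNA. The directions of Irs1, Irs2, Pik3r1, Pik3ca, Akt2, Foxo1 and Foxo3 against vehicle held in all 18 alternatives, and the calls of Irs2 and Pik3r1 in all 18. Pathway genes called for scrambled siRNA went from 7 to 4 (without scrambled replicate 2 or 3, or with 6 arrays alone), 11 (quantile normalization) and 22 (block); for CD24 siRNA from 9 to 5 (without vehicle replicate 3 or any CD24 siRNA array), 4 (6 arrays alone), 23 (block) and 16 (block, without CD24 siRNA replicate 3). All genes called went from 876 to between 313 and 852 with 1 array left out, 389 with 6 arrays and 2942 with the block, and from 840 to between 321 and 857, 461 and 2831. Differences near 0 changed sign: on leaving out 1 array Insr ran from -0.064 to 0.15 and Akt1 from -0.23 to 0.0019 for scrambled siRNA against vehicle. For CD24 against scrambled siRNA the ranges were -0.41 to 0.0054 (Irs1), -0.13 to 0.047 (Irs2), -0.16 to 0.038 (Pik3r1), -0.049 to 0.021 (Pik3ca) and -0.013 to 0.16 (Akt2), and Pik3ca was 0.023 with quantile normalization and 0.029 with the block and without CD24 siRNA replicate 3. None of these passed. The causes were not tested. The number of arrays, 3 per group, limits what can be detected.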

Other observations

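With the replicate block, further listed genes passed that are described nowhere above; they were chosen after their values were seen. Phlpp1, a phosphatase that removes an activating phosphate from AKT, was 1.81-fold higher with scrambled siRNA and 1.77-fold higher with CD24 siRNA than with vehicle (adjusted p = 0.000428 and 0.000569 with the block, 0.120 and 0.134 without it). Trib1, a pseudokinase gene, was 1.58-fold and 1.49-fold higher (adjusted p = 0.00126 and 0.00285 with the block), whereas its relative Trib3, an inhibitor of AKT, was 1.40-fold and 1.47-fold lower (adjusted p = 0.0141 and 0.00872 with the block). Sgk1, a kinase gene known to respond to glucocorticoids, was 1.72-fold and 1.52-fold higher (adjusted p = 0.00386 and 0.0127 with the block). Sgk3, named above, went the other way. The FOXO list was not split by whether FOXO proteins raise or lower a target, so its counts give no reading of FOXO activity. Of 19 tested FOXO relatives and targets 0 passed as higher with the block, and 5 and 6 as lower. The shares of all genes were 11.9% and 10.4% higher and 11.4% and 12.1% lower. Among them Pdk4, which restrains pyruvate use, was 1.81-fold and 1.77-fold lower (adjusted p = 0.00940 and 0.0114 with the block). The Pdk4 arrays overlapped those of vehicle in both comparisons. The catalase gene Cat was 1.59-fold and 1.48-fold lower (adjusted p = 0.00200 and 0.00491 with the block), while Foxo3 itself was higher in that fit. Others of the list, such as Bcl6 (means 8.74 with vehicle, 9.12 with scrambled and 9.24 with CD24 siRNA), had higher means and did not pass. For Phlpp1, Trib1, Trib3, Sgk1, Pdk4 and Cat the 3 same-numbered differences had a common sign in both comparisons, which share the vehicle arrays. Of all genes 53% and 52.1% had one. The block fit by which these 6 genes were picked favours such differences, so the common sign adds no support. None of the 6 passed without the block.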
